A study of Mus musculus with 36 samples.

Results

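The mitochondrial genome of the mouse codes for 7 subunits of respiratory complex I, and their mRNAs ND1, ND2, ND3, ND4, ND4L, ND5 and ND6 were followed in extracellular vesicles (EVs) and in the neural stem cells (NSCs) that released them. The genes were chosen by name, and all 7 were among the 40205 genes of the count tables. The libraries came from neurospheres, free-floating NSC cultures, grown from the dorsal telencephalon of C57BL/6J mouse fetuses at gestational day 12.5. Tissue was pooled by sex within each of 3 pregnancies (numbered 3, 4 and 5), which gave 6 cultures, and these were used at passages 7 to 10. Each culture was kept for 5 days in control medium (0 mg/dL) or in medium with 120 mg/dL (26 mM) or 320 mg/dL (70 mM) ethanol. RNA was then sequenced from the cells and from the EVs of the same flasks, giving 18 cell and 18 EV libraries, 3 for each of the 12 combinations of location, sex and dose. All groups shared the strain (given in the methods as C57BL/6J with the Ai14 reporter), the brain region and the medium, and each dose group of a location held 6 libraries from 3 litters. EVs were purified from medium by filtration, concentration and ultracentrifugation, and their RNA integrity could not be scored, whereas that of the cells could.

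Complex I takes electrons from NADH and passes them to ubiquinone while it pumps protons across the inner mitochondrial membrane. Its 7 mitochondrial subunits sit in the membrane arm, and the remaining subunits are coded in the nucleus, made in the cytosol and imported. The mitochondrial genome is read from both strands into long precursors that are cut into single mRNAs. ND6 is the only mRNA made from the light-strand promoter, and the other 6 ND mRNAs lie on the heavy-strand precursor.

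In the GRCm39 assembly (mm39), all 7 genes lie on the mitochondrial chromosome, M, and have no intron. ND1 spans positions 2751 to 3707, ND2 3914 to 4951, ND3 9459 to 9806, ND4L 9877 to 10173, ND4 10167 to 11544 and ND5 11742 to 13565, all on the plus strand of the assembly. ND6 spans 13552 to 14070 on the minus strand. The strand asymmetry is visible in the letters of the mRNAs. The ND6 mRNA holds 28.1% G and 5.97% C, whereas the 6 heavy-strand ND mRNAs hold 7.996% to 11.6% G and 22.1% to 30.0% C. ND6 and ND5 face each other and share 14 bases at their ends. These 74 bases of GRCm39, chrM:13522-13595, are shown in both senses because the counting of ND6 depends on which strand a read was assigned to, and the shared bases are in capitals.

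ND5 mRNA sense: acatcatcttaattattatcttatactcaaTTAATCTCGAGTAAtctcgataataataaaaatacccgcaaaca
ND6 mRNA sense: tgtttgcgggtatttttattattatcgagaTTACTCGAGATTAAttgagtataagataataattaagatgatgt

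The sequencing kit kept the strand of each RNA, but whether the count per gene used it is not stated, so reads of ND6 and reads from the opposite strand over ND6 cannot be told apart here.

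A second feature of the sequence bears on ND3, ND4L and ND4. A stretch of chromosome 1 (GRCm39 chr1:24650616-24655269, minus strand) is a nuclear copy of mitochondrial positions 6390 to 11042, and the 4654 aligned bases are 99.936% identical. ND3 and ND4L lie wholly inside this copy, ND4 lies inside it with 876 of its 1378 bases, and ND1, ND2, ND5 and ND6 lie outside it. Within ND3 the mitochondrial genome and the copy differ at 1 base, T9461C, the third base of the gene (the mitochondrial base comes first, then its position on M, then the base of the copy). The 61 bases around it are shown with that base in capitals, from chrM:9431-9491 and from chr1:24652168-24652228 on the minus strand.

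ND3 mitochondrial: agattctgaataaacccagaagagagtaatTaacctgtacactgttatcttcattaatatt
ND3 nuclear copy: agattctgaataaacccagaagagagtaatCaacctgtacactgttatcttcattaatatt

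ND4L is identical to the copy at all of its 297 bases. It is shown whole (chrM:9877-10173, also chr1:24651485-24651781 on the minus strand), with the 7 bases that it shares with the start of ND4 in capitals.

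ND4L: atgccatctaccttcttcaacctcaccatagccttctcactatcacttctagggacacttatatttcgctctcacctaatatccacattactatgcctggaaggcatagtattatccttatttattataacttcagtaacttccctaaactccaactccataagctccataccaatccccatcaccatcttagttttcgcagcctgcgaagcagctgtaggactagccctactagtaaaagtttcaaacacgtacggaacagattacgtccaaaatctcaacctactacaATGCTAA

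Windows of the length of 1 sequenced read, centred on each base of a gene, were looked for in the nuclear copies found by a sequence search. Of these windows, 93.6% of those of ND4L, 62.4% of those of ND3 and 58.1% of those of ND4 occurred there letter for letter. None of those of ND1, ND2, ND5 and ND6 did. With windows of 75 bases, 5.30% of those of ND2 and 1.59% of those of ND5 did. Parts of ND1, ND2, ND5 and ND6 also lie in other, less similar nuclear copies, such as a copy on chromosome 2 with part of ND2 (97.4% identical). How reads with more than 1 place in the genome were counted is not stated in the sources used here. The counts of ND3, ND4L and ND4 are therefore uncertain as levels, and the part of the copy in them was not tested.

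The libraries held 26566061 to 55282322 counts in cells and 959217 to 5509952 counts in EVs, and no 2 libraries were identical. The 7 ND genes took 118709 to 318024 counts in cells and 309 to 2503 counts in EVs. As a share of all counts this was 0.393% to 0.727% in cells (median 0.494%) and 0.00924% to 0.0746% in EVs (median 0.0358%). As CPM, the counts of a gene per 1000000 counts of its library, a list of 10 NSC markers summed to 3156 to 6030.2 in cells and 284 to 1189 in EVs, with Sox2 at 0 in every library. Markers of other neural cells were also present. In cells and EVs the medians of the summed CPM were 801 and 203.1 for 5 neuron markers, 119 and 69.6 for 5 oligodendrocyte lineage markers and 93.4 and 19.3 for 3 astrocyte markers, and their part in the results was not tested. Each of the 4 red blood cell markers had a median of 0 in both locations, and the 5 microglia markers summed to at most 0.878 CPM in cells and 6.62 in EVs.

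Levels are given as CPM after scaling by the trimmed mean of M-values (TMM), a factor that sets most genes level between libraries. ND1, which codes for the subunit at the joint between the membrane arm and the hydrophilic arm, had a lowest, median and highest level of 1403, 1974 and 3388 CPM over the 18 cell libraries. In EVs the same 3 values of ND1 were 18.2, 84.5 and 326 CPM. The highest EV library stood at less than the lowest cell library, with a gap of 4.31-fold. ND2, a proton-pumping subunit, ran from 469.5 CPM through a median of 877 to 2080.2 CPM in cells and from 8.36 through 34.5 to 112.1 CPM in EVs. ND4, another proton-pumping subunit, ran from 269 through 602 to 1152 CPM in cells and from 9.37 through 38.2 to 106 CPM in EVs. ND5, the pumping subunit at the far end of the membrane arm, ran from 439.8 through 877 to 1159 CPM in cells and from 44.6 through 137 to 245 CPM in EVs. For ND2, ND4 and ND5, as for ND1, no EV library reached any cell library. The share of all genes whose EV and cell ranges stay apart was not counted. In the test described below, 81.8% of 17758 genes differed between EVs and cells, so such gaps are only a description.

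ND3 codes for a small subunit with a loop that moves between the active and the resting state of the complex. It reached 9.98, 21.0 and 50.9 CPM as the lowest, median and highest of the cell libraries, and 0, 1.33 and 6.77 CPM in EVs, where its counts were only 0 to 22. The EV and cell ranges of ND3 did not overlap, although its highest EV library lay within 1.47-fold of the lowest cell library. ND6, whose subunit holds a helix of the proton path, ran from 90.0 through 179.9 to 309 CPM in cells and from 22.0 through 59.9 to 164 CPM in EVs. On the TMM scale, ND6 alone of the 6 members with counts in EVs had values whose EV and cell ranges overlapped. They overlapped at 320 mg/dL, where the highest EV library had 164 CPM and the lowest cell library 133 CPM. At 0 and 120 mg/dL the ND6 ranges stayed apart, by 1.15-fold and 1.05-fold. The overlap depended on the scaling. As CPM of unscaled library totals, the highest EV library of ND6 had 113.7 and the lowest cell library 116.8, so the ranges stayed apart.

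**Figure D1:**
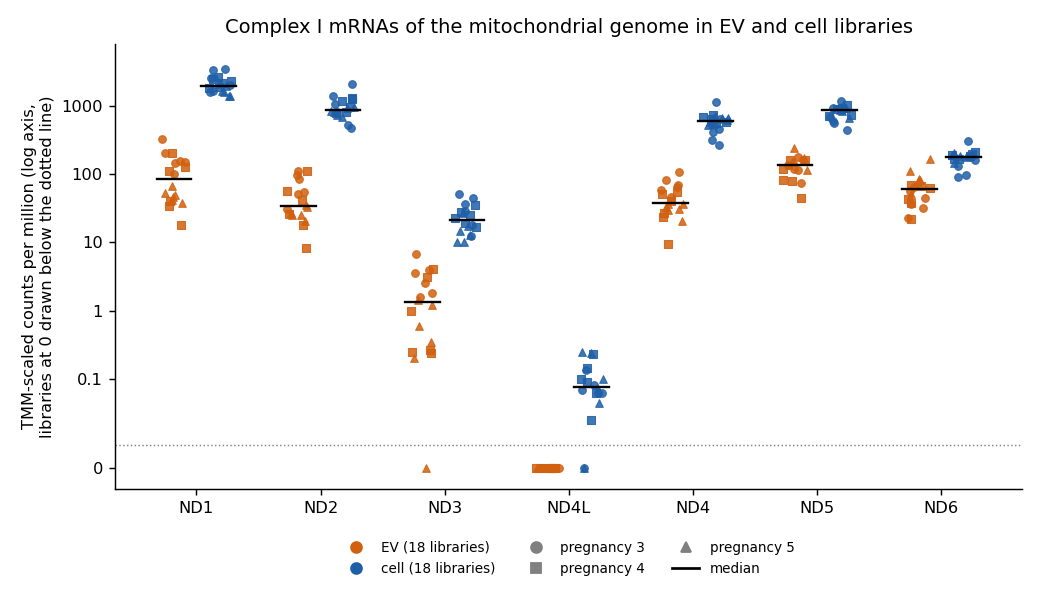
Level of each ND mRNA in the 18 EV (orange) and 18 cell (blue) libraries, as TMM-scaled CPM on a log axis, with the pregnancy given by the symbol, the median as a line and libraries at 0 below the dotted line. The EV points lie below all cell points for ND1, ND2, ND3, ND4 and ND5, the ND6 points overlap, and ND4L lies at 0 in every EV library.

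ND4L, a small membrane subunit next to ND6, could hardly be measured. It had 0 to 10 counts in the cell libraries (median 3) and 0 counts in all 18 EV libraries. A count of 0 allows up to 3 counts, which is 0.544 to 3.13 CPM at the depths of the EV libraries, and this limit covers counting error only. At the share ND4L had in cells, the EV libraries would have held 0.101 to 0.581 counts each, so that a difference between EVs and cells was not detectable at this depth. The level of ND4L in cells per kilobase (kb) of gene, a median of 0.258 CPM per kb, stood against 437 CPM per kb for ND4, whose first bases it shares.

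The low level was shared by other genes of the copied stretch. COX2, COX3 and ATP6, which lie wholly inside the chromosome 1 copy, and ATP8, which does too, had 0 counts in all EV libraries and at most 8, 11, 8 and 3 counts in cells. COX1, with 31.3% of its bases inside the copy, and CYTB, with none, had medians of 3521 and 2601 CPM per kb in cells. If only the 502 bases of ND4 outside the copy are taken as its length, its median was 1199 CPM per kb in place of 437 in cells and 76.2 in place of 27.7 in EVs.

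**Figure D2:**
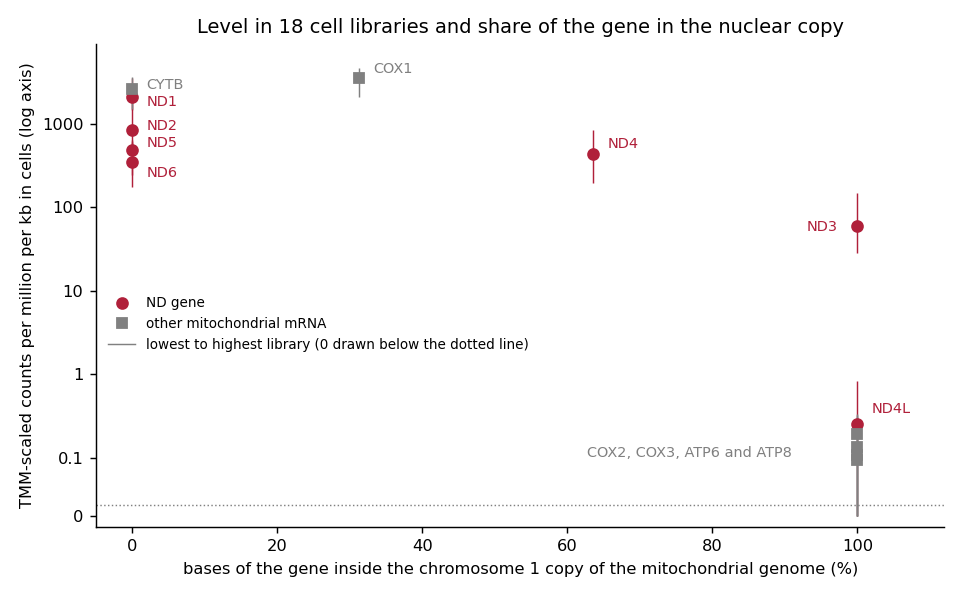
Median level in the 18 cell libraries, in TMM-scaled CPM per kb on a log axis with the lowest to highest library as a line, against the share of each mitochondrial mRNA that lies in the chromosome 1 copy (ND genes as red circles, the other mitochondrial mRNAs as grey squares). Genes with 0% in the copy have medians of 347 CPM per kb or more, whereas at 100% ND3 has 60.5 CPM per kb and the other 5 genes lie below 1 CPM per kb.

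Per kb of the full gene, the order of the median levels in cells was ND1, ND2, ND5, ND4, ND6, ND3 and ND4L, with medians of 2063, 845, 481, 437, 347, 60.5 and 0.258 CPM per kb. Within single cell libraries ND1 exceeded ND2 in 18 of 18, ND2 exceeded ND5 in 18, ND4 exceeded ND6 in 18 and ND6 exceeded ND3 in 18. ND5 exceeded ND4 in only 13 of 18, and their ranges overlapped. This place of ND4 holds for its full length only, since with the 502 bases outside the copy its median of 1199 CPM per kb would stand second, between ND1 and ND2. In EVs the order was ND6, ND1, ND5, ND2, ND4, ND3 and ND4L, with medians of 115, 88.3, 74.98, 33.3, 27.7, 3.82 and 0 CPM per kb. ND6 exceeded ND1 in 10 of 18 EV libraries and ND1 exceeded ND5 in 9 of 18, so neither of these pairs had a single order. The order turned with the pregnancy. ND1 stood above ND6 in every EV library of pregnancy 3 and below it in every EV library of pregnancy 5. The ratio of ND1 to ND5 per kb in EVs ran from 1.80 to 3.53 in pregnancy 3, from 0.780 to 2.41 in pregnancy 4 and from 0.529 to 0.664 in pregnancy 5. ND6 stood above ND5 in most EV libraries, with a ratio per kb of 0.806, 1.68 and 2.36 as lowest, median and highest. ND5 exceeded ND2, and ND2 exceeded ND4, in 14 of 18 each. With the shorter length of ND4, its median in EVs of 76.2 CPM per kb would stand above that of ND2 and close to that of ND5.

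The first comparison asked how the RNA of EVs differed from that of the cells. In edgeR's quasi-likelihood test with Benjamini-Hochberg adjustment, and terms for sex and dose, 6 of the 6 members that passed the filter on low counts were lower in EVs, and ND4L did not pass it. In this comparison 43.7% of the 17758 genes tested were called lower and 81.8% were called in either direction, so a count of members lower is no more than a description. Levels are relative to the other RNA of a library, so a lower level in EVs is not an amount per vesicle. Whether fewer vesicles carried the mRNA, each held less of it or other RNAs took a larger share cannot be told apart in pooled vesicles. The members' median log2 fold change was -3.62, beside a median of -0.14 over all genes tested.

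The size of the difference varied between the members. ND1 was lower in EVs by 4.11 on the log2 scale (log2 fold change -4.11, SE 0.30, adjusted p = 4.26e-15), which is 17.3-fold. ND2 stood at -4.15 on that scale (SE 0.26, adjusted p = 6.58e-17), or 17.7-fold. ND3 had -3.73 (SE 0.36) and ND4 had -3.51 (SE 0.23) on the same log2 scale. ND5, the last ND gene of the heavy strand, stood at -2.39 (SE 0.16, adjusted p = 6.22e-16), or 5.26-fold. Light-strand ND6 had the smallest difference, -1.27 in log2 (SE 0.19, adjusted p = 2.19e-07), or 2.41-fold. In each of the 6 cultures, with the 3 doses averaged, all 6 tested members were lower in EVs than in cells. Of the other mitochondrial mRNAs, CYTB, on the heavy-strand precursor at positions 14145 to 15288, had a log2 fold change of -3.67 (SE 0.28) and COX1, at positions 5328 to 6872, had -3.73 (SE 0.31). These p-values take the 3 libraries of a culture and location as independent, and after summing counts over the doses of each culture all 6 members were still called lower, with ND6 at a log2 fold change of -1.51 (edgeR adjusted p = 0.000214).

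The scaling sets the size of these values. With median-of-ratios size factors the members' log2 fold changes ran from -3.76 to -0.86 and with unscaled library totals from -4.59 to -1.76, while the median of all genes moved from -0.14 to 0.22 and -0.65. The share of all calls that were higher in EVs was 46.6% with TMM, 56.4% with median-of-ratios size factors and 35.4% with library totals. All 6 members stayed lower, and called, under both.

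**Figure D3:**
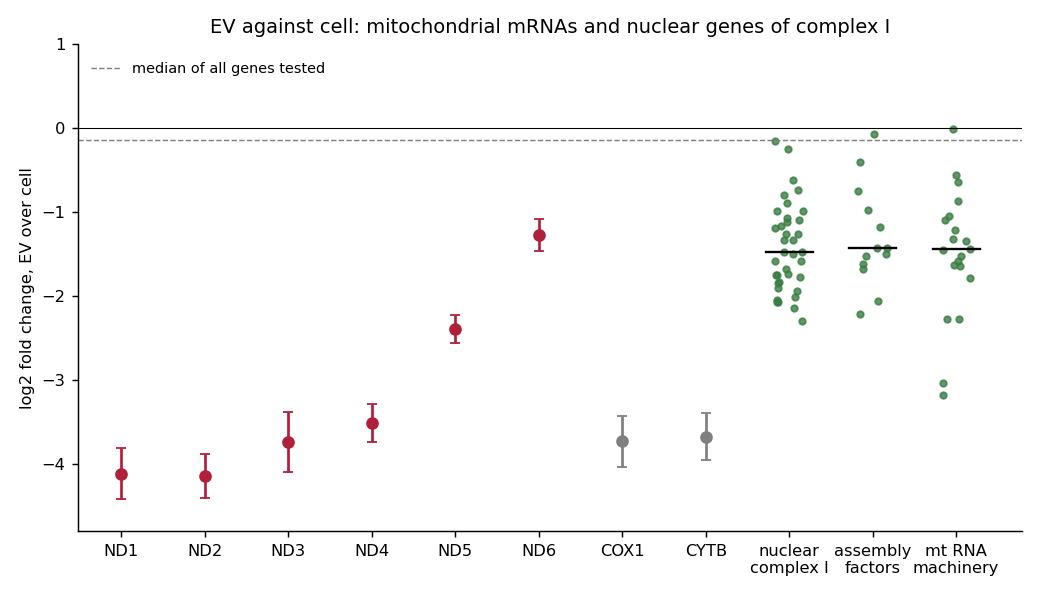
Log2 fold change of EV over cell libraries (edgeR, TMM scaling) for the 6 tested ND mRNAs (red, bars give the SE), for COX1 and CYTB (grey) and for single nuclear genes of 3 lists (green, the line is the median). ND1 to ND4 lie between -4.15 and -3.51, ND5 at -2.39 and ND6 at -1.27, and the medians of the nuclear lists lie between -1.48 and -1.43.

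At each dose taken alone the same 6 members were called lower in EVs by edgeR, where 36.2%, 36.2% and 35.9% of 18728 genes were called lower at 0, 120 and 320 mg/dL. ND1 had log2 fold changes of -3.95, -4.45 and -4.14 at the 3 doses, with SE 0.53 to 0.54. ND5 had -2.39, -2.59 and -2.41, with SE 0.29 each. ND6 had -1.45, -1.34 and -1.24, with SE 0.34 each. The ND6 difference at 320 mg/dL was called in edgeR (adjusted p = 0.00188) but not with median-of-ratios size factors (log2 fold change -0.76, adjusted p = 0.0625) or in DESeq2 (adjusted p = 0.0608).

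Most nuclear genes of complex I were also lower in EVs. Of 37 nuclear subunits, 35 were lower, 2 did not pass the test and none was higher, and their median log2 fold change was -1.48, smaller in size than the values of ND1 to ND5 but not than the -1.27 of ND6. Ndufb1, an accessory subunit of the membrane arm, had 45.3 ± 17.0 CPM in cells and 7.64 ± 3.09 CPM in EVs (SD, n = 18 libraries each), with a log2 fold change of -2.29 (edgeR adjusted p = 6.38e-15). Ndufc2, another accessory subunit of the membrane arm, had 129 ± 37.1 CPM in cells and 25.3 ± 7.31 CPM in EVs and a log2 fold change of -2.15 (edgeR adjusted p = 2.23e-16). They were the largest differences among nuclear subunits with 1 direction in all 6 cultures. The 2 subunits that did not pass were Ndufs3 (log2 fold change -0.15, SE 0.13) and Ndufb5 (-0.25, SE 0.15), named after their values were seen. Of 14 factors that assemble complex I, 13 were tested and 12 were lower, with a median of -1.43 on the log2 scale.

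The genes that make, process and hold mitochondrial mRNAs were lower too. Of 21 such genes 20 were tested, and 19 were lower and none higher, and the median log2 value was -1.45. Pnpt1 and Supv3l1, the exonuclease and the helicase that degrade mitochondrial RNA, had log2 fold changes of -3.17 (SE 0.16) and -1.45 (SE 0.12). Lrpprc and Slirp, partners that stabilize heavy-strand mRNAs, had -1.79 (SE 0.10) and -1.53 (SE 0.17). Polrmt, the mitochondrial RNA polymerase, had -0.87 (SE 0.15), and Tfam, a factor that packs the mitochondrial genome and starts its transcription, had -0.56 (SE 0.13).

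Ratios within a library do not depend on how libraries are scaled, and 3 of them were compared between EVs and cells over the 6 cultures. The first set ND6 per kb against the sum of the 6 heavy-strand ND genes per kb. In cells its log2 value lay between -4.11 and -3.04 (median -3.58), and in EVs between -2.90 and 0.23 (median -0.83). The lowest EV library lay above the highest cell library, so the locations did not overlap. The mean over cultures was -1.12 ± 1.00 in EVs and -3.59 ± 0.249 in cells (SD, n = 6 cultures), a difference of 2.47 on the log2 scale, or 5.52-fold. All 6 cultures had the higher value in EVs, by 1.33 to 3.20. The exact sign-flip permutation test, two-sided, gave p = 0.03125, the smallest that 6 cultures allow, and an adjusted p of 0.234 over the 15 tests of the 3 ratios, so that it did not pass the correction.

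The ND6 ratio depended on its partner. Against ND5 alone, its neighbour on the other strand, the EV to cell difference was 1.05 on the log2 scale, and against ND1 and ND2 it was 3.00. Without the genes of the nuclear copy, against ND1, ND2 and ND5, it was 2.49. Each of these was higher in EVs with the exact p of 0.03125. In counts, ND6 made up 2.73% to 5.18% of the 7 ND genes in cells (median 3.80%) and 5.68% to 29.9% in EVs (median 18.5%).

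The EV values of the ND6 ratio also differed between pregnancies. For pregnancy 3 the log2 ratio in EVs ran from -2.90 to -1.48 (median -2.32), for pregnancy 4 from -1.92 to -0.48 (median -0.83) and for pregnancy 5 from -0.52 to 0.23 (median -0.08), with 6 libraries each. In cells the medians for the 3 pregnancies were -3.86, -3.60 and -3.36. ND1, part of the denominator, ran in EVs from 101 to 326 CPM in pregnancy 3 and from 37.5 to 67.9 CPM in pregnancy 5. In pregnancy 4 its 2 cultures stood apart, with 109.6 to 202.7 CPM in the female and 18.2 to 39.9 CPM in the male culture. ND6 in EVs ran from 22.4 to 65.4 CPM in pregnancy 3, from 22.0 to 68.1 CPM in pregnancy 4 and from 51.7 to 164 CPM in pregnancy 5. By the median of the 6 EV libraries of a pregnancy, ND1 fell and ND6 rose from pregnancy 3 through 4 to 5, while the ratio rose. For both genes the range of pregnancy 4 overlapped those of pregnancies 3 and 5. ND6 had like ranges in pregnancies 3 and 4, and the male culture of pregnancy 4 had ND1 levels below the pregnancy 5 median of 47.7 CPM. The difference between pregnancies was not tested, with 2 cultures in each, and the EV to cell difference of the ratio was 2.10 to 2.89 when any 1 pregnancy was left out.

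**Figure D4:**
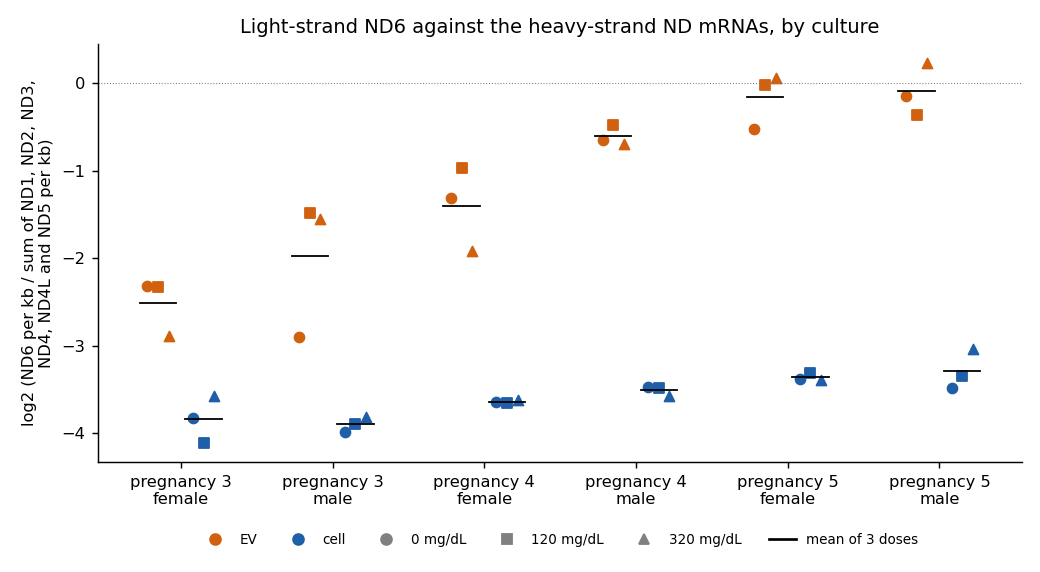
Log2 ratio of ND6 per kb to the summed heavy-strand ND genes per kb in each library, by culture, for EVs (orange) and cells (blue), with the ethanol dose given by the symbol and the mean of the 3 doses as a line. In all 6 cultures the EV mean lies above the cell mean, by 1.33 to 3.20, and the EV medians are -2.32 for pregnancy 3 and -0.08 for pregnancy 5.

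The other 2 ratios gave the ND genes a place among related mRNAs. The ND counts against those of the 6 other mitochondrial mRNAs had a log2 ratio of -0.247 ± 0.622 in EVs and -0.849 ± 0.302 in cells (SD, n = 6 cultures), higher in EVs in 4 of 6 cultures (exact permutation p = 0.1875, adjusted p = 0.469). This ratio rested on COX1 and CYTB, and its sign turned to -2.84 when the mean of single-gene log2 values, which weighs the genes at 0 equally, took the place of the sum. The ND counts against those of the 37 nuclear complex I subunits had a log2 ratio of -0.585 ± 0.913 in EVs and 1.42 ± 0.247 in cells, a difference of -2.005 or 4.01-fold. All 6 cultures had the lower value in EVs, with differences from -3.53 to -0.945 (exact permutation p = 0.03125, adjusted p = 0.234).

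The next comparisons asked whether ethanol changed these levels. In EVs, 0 of 6 tested members passed edgeR's test at 120 mg/dL against control and 0 at 320 mg/dL, with the culture as a block, while 0.00758% and 0.0758% of 13193 genes were called. In cells, 0 of 6 passed at either dose, and 0% of 18725 genes were called. DESeq2 also called 0 members in each of the 4 comparisons. At an unadjusted p under 0.05, edgeR had 0 members at 120 mg/dL in EVs and in cells, 1 at 320 mg/dL in EVs (ND6) and 2 at 320 mg/dL in cells (ND5 and ND6). The share of all genes under that unadjusted threshold was not counted, here or in the comparisons below. Such counts of members are therefore only a description, and the shares of genes called do not stand beside them.

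ND6 had the largest value at 320 mg/dL in both locations. In cells it ran from 95.3 through a median of 162 to 198 CPM in controls, from 90.0 through 177 to 210.3 CPM at 120 mg/dL and from 133 through 191 to 309 CPM at 320 mg/dL. The groups overlapped, and at 320 mg/dL it was higher than control in 5 of 6 cultures (log2 fold change 0.35, SE 0.12, edgeR adjusted p = 0.431). In EVs it ran from 22.4 through 48.2 to 82.6 CPM in controls, from 22.0 through 66.8 to 85.5 CPM at 120 mg/dL and from 31.5 through 59.9 to 164 CPM at 320 mg/dL. Here too the groups overlapped, with 4 of 6 cultures higher at 320 mg/dL (log2 fold change 0.47, SE 0.21, edgeR adjusted p = 0.443).

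The heavy-strand members gave no call either. At 320 mg/dL in cells, ND1, ND2, ND4 and ND5 had log2 fold changes of 0.16 (SE 0.12), 0.28 (SE 0.15), 0.34 (SE 0.17) and 0.26 (SE 0.12), and ND3 had -0.01 (SE 0.32). At 120 mg/dL in cells the 6 members lay between 0.03 and 0.11 on the log2 scale. In EVs they lay between -0.22 and 0.37 at 120 mg/dL and between 0.18 and 0.47 at 320 mg/dL. The signs in EVs depended on the scaling, and with library totals ND1, ND2, ND4 and ND5 at 320 mg/dL turned to -0.11, -0.0046, -0.11 and -0.01 and ND6 at 120 mg/dL to -0.06. The medians of all genes tested were between -0.01 and 0.01 in these comparisons. Among the nuclear complex I subunits 0 of 36 in EVs and 0 of 37 in cells passed edgeR's test at either dose, with medians of 0.07 in EVs and 0.10 in cells at 320 mg/dL. A dose difference of ND4L was not detectable, since its cell counts were at most 10 in any library.

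**Figure D5:**
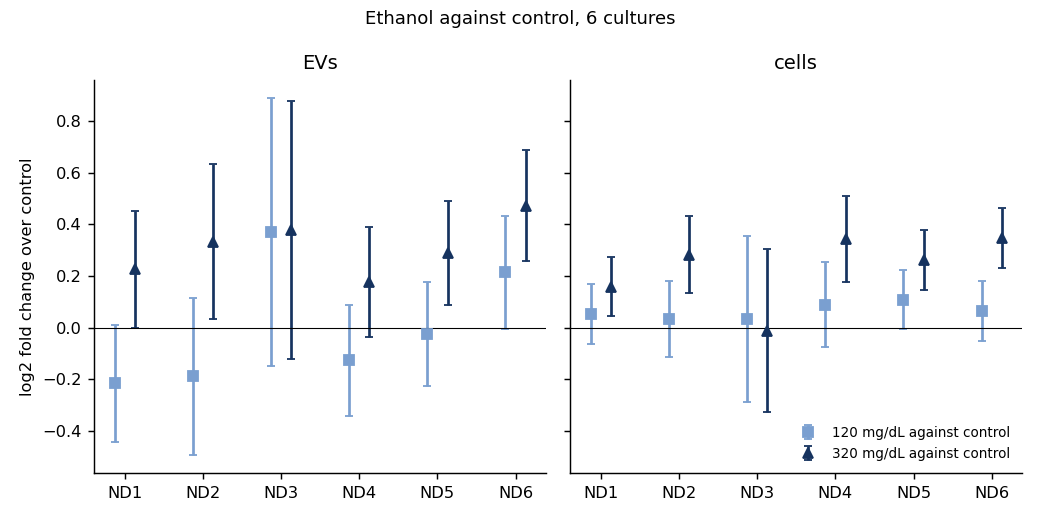
Log2 fold change of 120 mg/dL (light squares) and 320 mg/dL (dark triangles) ethanol against control for the 6 tested ND mRNAs in EVs and in cells, from edgeR with the culture as a block (bars give the SE). With TMM scaling the values lie between -0.22 and 0.47, several EV values turn sign with library totals, and none passed the test across all genes.

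The study also set EVs against cells and asked whether that ratio changed with dose. For the EV:cell ratio, tested in edgeR as an interaction with a block for the EV and cell libraries of 1 culture and dose, 0 of 6 members passed at 120 mg/dL and 0 at 320 mg/dL against control, with 0 at an unadjusted p under 0.05, 0 in DESeq2, and 0.00438% and 0% of 22854 genes called. The members' log2 differences of the ratio lay between -0.25 and 0.14 at 120 mg/dL and between -0.11 and 0.42 at 320 mg/dL, with SE of 0.44 to 0.78. With library totals the ratio differences of ND6 at 120 mg/dL and of ND1 and ND6 at 320 mg/dL turned negative. Without the block, ND1, ND2 and ND3 at 320 mg/dL turned to -0.17, -0.06 and -0.03 and ND5 to 0.0025. ND3 at 120 mg/dL turned to -0.43. The 3 within-library ratios gave no call at either dose. The ND6 to heavy-strand ratio differed from control by 0.367 at 120 mg/dL and 0.180 at 320 mg/dL in EVs, and by -0.00153 and 0.129 in cells, with exact permutation p-values of 0.1875, 0.656, 0.969 and 0.1875. The comparisons of both doses share the control libraries.

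Female and male cultures were compared within each location. In cells 1 of 6 members passed edgeR's test with a term for dose, where 5.70% of 18048 genes were called and 3.19% were called higher in females. ND2 was that member, with 737 to 2080.2 CPM in the 9 female libraries (median 1154) and 469.5 to 953 CPM in the 9 male libraries (median 802). The log2 fold change of ND2, female over male, was 0.69 (SE 0.18, adjusted p = 0.0356). By pregnancy, ND2 averaged 1512 ± 521 CPM in the female and 602 ± 181 CPM in the male culture of pregnancy 3, 1226 ± 63.7 and 845 ± 94.1 CPM in pregnancy 4, and 831 ± 94.1 and 813 ± 131 CPM in pregnancy 5 (SD, n = 3 doses each). The sexes did not overlap in pregnancies 3 and 4 and overlapped in pregnancy 5. The call was lost without pregnancy 3 (log2 fold change 0.37, adjusted p = 0.171) or without pregnancy 4 (0.74, adjusted p = 0.139). With the pregnancy as a block, ND1 was also called, at a log2 fold change of 0.40 (edgeR adjusted p = 0.0393), beside ND2 at 0.65 (adjusted p = 0.0217), and with counts summed over doses neither was called. Except for the summed counts, these fits took the 3 libraries of a culture as independent.

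In EVs 0 of 5 tested members passed between the sexes in edgeR, 0 in DESeq2 and 0 at an unadjusted p under 0.05, where 12% of 12252 genes were called. The values of ND1 and ND2 were 0.54 (SE 0.52) and 0.82 (SE 0.44) on the log2 scale, female over male. Without pregnancy 3 both were called higher in females, at 1.44 (adjusted p = 0.0370) and 1.36 (adjusted p = 0.0297), and without pregnancy 4 they were -0.34 and 0.05. The fit without pregnancy 3 took the libraries of a culture as independent. ND1 then ran from 109.6 to 202.7 CPM in the female and from 18.2 to 39.9 CPM in the male culture of pregnancy 4. In pregnancy 5 it ran from 37.5 to 49.6 CPM in the female and from 45.9 to 67.9 CPM in the male culture.

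The genes whose levels ran most like those of the ND mRNAs over the 18 libraries of a location were named by correlation of log2 CPM, as a description, since libraries share cultures and depth. In EVs, the sum of the 6 heavy-strand ND genes ran most like CYTB (Pearson r = 0.944), COX1 (0.937) and TrnL1 (0.837), a mitochondrial transfer RNA. ND6 in EVs ran instead most like Dcx (0.908), a microtubule protein of young neurons, Rnaseh2b (0.886), a subunit of ribonuclease H2, and D430041D05Rik (0.872). In cells the heavy-strand sum ran most like Gm36449 (0.930), Gm38523 (0.901) and n-TMcat11 (0.895), and ND6 most like n-TDgtc5 (0.933), Cdk8 (0.8997), a kinase of the Mediator complex, and n-TDgtc4 (0.889). By rank (Spearman rho), these ND6 matches in cells had only 0.769, 0.752 and 0.709, beside 0.915, 0.868 and 0.837 for the heavy-strand matches in cells. Those in EVs lay between 0.779 and 0.940 by rank. The median correlation of all genes that passed the filter lay between -0.04 and 0.00 for these 4 profiles.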

How the data were processed

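RNA from EVs and cells was depleted of ribosomal RNA and sequenced in paired-end reads from a stranded kit. Per the labels and methods, the authors removed duplicates, trimmed with Trimmomatic, aligned with STAR to mm39 and deposited raw read counts per gene made with HTSeq. Its strand, overlap and multiple-mapping settings are not given in the sources used here. The deposited counts of 36 libraries were mapped to groups by their labels, and the total count was 959217 to 5509952 for an EV library and 26566061 to 55282322 for a cell library. Counts were tested with edgeR 4.0.16 (quasi-likelihood test, TMM scaling, its filter with a minimum count of 10 and a total of 15) in R 4.3.3, with Benjamini-Hochberg adjustment over all genes tested and a threshold of 0.05. The EV against cell fit held sex and dose as terms, and doses were compared with the culture as a block, EV:cell ratios with the pair of libraries as a block, and sexes with a term for dose. The 3 libraries of a culture were treated as independent where no block was used, so those p-values measure the spread between these samples. Within-library ratios were compared over 6 cultures with an exact two-sided sign-flip permutation test computed in Python 3.11.15, adjusted over 15 tests. Libraries of a culture share the same fetal tissue, and the median correlation of their deviations between control and a dose was 0.135 and 0.171 in EVs and 0.559 and 0.480 in cells. Between the EV and the cell library of a culture and dose, the block of the EV:cell ratio test, that median correlation was 0.0501. DESeq2 1.42.0, other scalings, no filter, left-out pregnancies, blocks and sums over doses were alternatives. Coordinates and sequences came from GRCm39 with GENCODE annotation, and copies were searched with BLAST 2.17.0 at a minimum identity of 85% and length of 100.0 bases. The scripts were tested on simulated data. The named nuclear genes were those with the largest called difference and 1 direction in all 6 cultures. The members and gene lists were chosen with earlier results of these data known.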

Additional observations from a re-analysis of the deposited data

Results flagged for a closer look

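In 7 of 60 groups of 6 libraries, the highest or lowest library stood apart from the others by Dixon's test at the 95% level, which chance gives in about 1 in 20 groups. The groups share libraries, and the EV groups of ND4L, without any count, could not be flagged. The tally is therefore only a description and cannot be set against that rate. Among control EVs, the male culture of pregnancy 3 had 326 CPM of ND1, where the next library had 126, and 6.77 CPM of ND3, where the next had 1.79. Among EVs at 120 mg/dL, the male culture of pregnancy 4 had the lowest log2 ratio of ND to nuclear complex I counts, -2.76, where the next had -0.754. Among control cells, the male culture of pregnancy 5 had 0.242 CPM of ND4L, where the next had 0.0997, all from 10 counts or fewer. Among cells at 320 mg/dL, the female culture of pregnancy 3 had 2080.2 CPM of ND2 (next 1154), 1152 CPM of ND4 (next 687) and a log2 ratio of ND to nuclear complex I counts of 1.67 (next 1.49). What set these libraries apart was not tested.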

How the results depend on the processing

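Of the alternative values for the comparisons, 227 stayed on the same side of the threshold or within 1.5 times the count, as did 693 of those for single genes on their side. The count of members called between female and male EVs, 0, ran from 0 to 2 when 1 pregnancy was left out, the 2 coming without pregnancy 3. In cells the count of 1 became 0 with no filter on low counts and 0 with counts summed over doses, ran from 0 to 1 when 1 pregnancy was left out, and was 2 with the pregnancy as a replicate block. Female and male libraries of a pregnancy had median correlations of their deviations of 0.0708 in EVs and 0.277 in cells. Without the replicate block, in an exact permutation test that ignores which EV and cell values share a culture and so allows a smaller p, the EV to cell differences of the ND6 ratio (2.47) and of the ND to nuclear complex I ratio (-2.005) had an adjusted p of 0.0162 over the same 15 tests. In control libraries alone they were 2.33 and -2.06, with the same unadjusted exact p of 0.03125. Their adjusted p of 0.0469 there comes from adjusting over 3 tests in place of 15 and is no stronger evidence. Blocks changed no other call. Of 820 alternative values that are differences, 61 had another sign than the reported one, and 0 of these passed the threshold in either setting. For the sex counts the cause was not tested. With 1 pregnancy left out, 4 cultures remain and the smallest exact p is 0.125. Without pregnancy 3, the EV over cell log2 fold change of ND3 was -4.46, and at 0 mg/dL those of ND1, ND2, ND3 and ND4 were -4.97, -4.87, -5.67 and -4.19. At 120 mg/dL without pregnancy 3, ND1, ND2 and ND4 had -5.17, -5.20 and -4.44, and without pregnancy 5 ND6 at 320 mg/dL had -1.96. Depth limits ND3 and ND4L most, with at most 22 and 0 counts in EVs.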
